A study of Mus musculus with 8 samples.

Results

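The 10 genes described here encode the channels, pumps and sensors that set calcium levels in the cytosol and the endoplasmic reticulum (ER): Cacna1e, Itpr1, Itpr2, Itpr3, Orai1, Stim1, Stim2, Atp2a2, Atp2a3 and Atp2b1. They were chosen by name, with earlier results of the same comparison known: Cacna1e was put forward because it stood among the largest decreases, and the others as its pathway. All 10 were found by symbol among the 55359 genes listed in each sample, and all 10 met the minimum for testing, an FPKM (fragment counts scaled by gene length and by the total of mapped fragments) of at least 1 in at least 4 samples. Cacna1e met it through the controls and 3 of the 4 Lck-cre samples, and the other 9 had an FPKM of at least 1 in every sample.

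RNA of sorted mouse thymocytes was sequenced at 5 weeks of age. The cells were double positive (DP) for CD4 and CD8, with surface TCR beta absent or at low to intermediate level. The 4 Lck-cre samples (replicates 5 to 8, genotype LSL-Sting1-N153S;Lck-cre) carried a Sting1 allele with the N153S substitution behind a loxP-flanked stop cassette, and Cre under the Lck promoter, which is active from early thymocyte stages on. The 4 control samples (replicates 1 to 4, genotype LSL-Sting1-N153S/+) carried the silent allele without Cre. Replicates 5 and 1 were female and the other 3 of each group male. No group with Cre alone was analysed here, so the Cre transgene and the mutant STING cannot be told apart. The sources used here do not say whether each sample came from its own animal, so errors and p-values cover the spread between these samples, which may be partly technical.

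Sting1 itself lay at 85.4 to 232 FPKM in the Lck-cre samples and at 11.6 to 15.3 FPKM in the controls. The labels imply the direction of this difference and not its size. The sum of FPKM over all genes was 437778 to 457145 in the Lck-cre samples and 413835 to 437426 in the controls; read counts are not among the values used here, so depth is unknown. All 10 markers listed for DP thymocytes were at 41.1 FPKM or more in every sample, and their summed level was 4607 to 5911 FPKM in the Lck-cre samples and 5951 to 6348 FPKM in the controls, with 4 of 10 lower and 0 higher by limma. Of 10 markers of cycling cells, 9 were higher, with a summed level of 1161 to 1534 FPKM in Lck-cre and 728 to 1042 FPKM in the controls. Several markers of other cells, Ms4a1 and Pax5 (B cells), Csf1r and Adgre1 (myeloid cells), Xcr1 and Zbtb46 (dendritic cells), Ncr1, Klrb1c, Eomes and Klra1 (NK cells), Krt5 and Foxn1 (epithelium), Pdgfra and Col3a1 (stroma), the 4 globin genes, and Snap25, Syt1, Chga and Stmn2 (neuronal and endocrine cells), were under 0.1 FPKM in all 8 samples. Others were present. Of the stroma and endothelium markers, which summed to 50.1 to 57.6 FPKM in Lck-cre and 43.6 to 52.9 FPKM in the controls, Pecam1 alone reached 1 FPKM in every sample. Cd79b did so among the B cell markers, which summed to 7.85 to 15.5 FPKM in Lck-cre and 12.3 to 16.9 FPKM in the controls, and Epcam among the epithelial ones, with 3.84 to 5.13 FPKM in Lck-cre and 3.45 to 5.55 FPKM in the controls. The 5 myeloid markers, of which Itgam and Cd68 reached 1 FPKM in every sample, summed to 10.5 to 14.9 FPKM in Lck-cre and 8.44 to 9.05 FPKM in the controls. The 5 NK cell markers, of which Gzma alone reached 1 FPKM in every sample, summed to 34.9 to 88.9 FPKM in Lck-cre and 16.4 to 26.7 FPKM in the controls. By limma 1 of the 2 myeloid markers tested was higher and 0 lower, and Gzma, the 1 NK cell marker tested, was higher. The 1 gene tested in each of the B cell, epithelial and stroma lists was not called. The 5 dendritic cell markers, too low to be tested, summed to 0.317 to 1.48 FPKM in Lck-cre and 0.145 to 0.239 FPKM in the controls. The part of these marker levels and shifts in the values that follow was not tested. In bulk RNA fewer cells of a type and less RNA per cell cannot be told apart.

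Calcium entry in T cells starts when the T cell receptor activates phospholipase C, whose product IP3 opens IP3 receptors in the ER membrane. The STIM proteins sense the fall of calcium in the ER and open ORAI channels in the plasma membrane, the route known as store-operated entry. SERCA pumps, encoded by Atp2a genes, return calcium to the ER, and plasma membrane calcium ATPases, encoded by Atp2b genes, expel it. In DP thymocytes these signals accompany positive and negative selection. STING resides in the same ER membrane, and STIM1 is known to bind it and hold it there.

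Promoter windows of RefSeq (GRCm38.p6, from 250 bases before the annotated start to 50 after it) were matched by symbol for 8 of the 10 genes, other than Itpr1 and Atp2a2, in 9 windows since Atp2b1 has a pair. The windows of Cacna1e, Stim1 and Atp2a3 are shown because these genes stand for the largest difference between genotypes, a steady level and the highest level among the members; CpG dinucleotides are in capitals.
Cacna1e, chr1:154725871-154726170, minus strand: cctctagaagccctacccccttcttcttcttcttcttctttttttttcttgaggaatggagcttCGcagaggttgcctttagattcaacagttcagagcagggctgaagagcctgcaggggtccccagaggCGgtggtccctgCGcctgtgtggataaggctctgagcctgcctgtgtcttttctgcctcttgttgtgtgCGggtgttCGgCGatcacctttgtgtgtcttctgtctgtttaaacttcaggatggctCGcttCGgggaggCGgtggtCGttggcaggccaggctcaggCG
Stim1, chr7:102267569-102267868, plus strand: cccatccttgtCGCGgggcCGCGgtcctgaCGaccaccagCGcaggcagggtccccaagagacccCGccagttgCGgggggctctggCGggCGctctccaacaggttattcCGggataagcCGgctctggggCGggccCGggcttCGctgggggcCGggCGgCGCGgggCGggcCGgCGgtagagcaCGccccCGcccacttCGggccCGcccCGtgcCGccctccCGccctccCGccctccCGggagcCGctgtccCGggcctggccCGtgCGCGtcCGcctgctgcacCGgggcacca
Atp2a3, chr11:72960919-72961218, plus strand: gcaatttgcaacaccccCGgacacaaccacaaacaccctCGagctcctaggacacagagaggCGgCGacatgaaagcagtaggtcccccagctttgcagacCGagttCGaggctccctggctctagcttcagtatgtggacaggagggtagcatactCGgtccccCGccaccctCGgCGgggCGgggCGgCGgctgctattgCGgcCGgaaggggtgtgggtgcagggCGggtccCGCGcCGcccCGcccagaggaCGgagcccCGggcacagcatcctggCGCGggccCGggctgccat
The Cacna1e window held 11 CpG dinucleotides, against 38 in Stim1, 25 in Atp2a3 and a median of 7 over 32851 windows of the same length. Among the 9 member windows the CpG count ran from 11, in Cacna1e, to 54, in the first window of Atp2b1. The GC box GGGCGG, searched on both strands with overlapping matches counted, was present in 8 of the 9 windows, all but that of Cacna1e, and in 35.7% of all windows. TATAAA, the paired IRF core (GAAA, any 2 bases, GAAA) and the cyclic AMP response element TGACGTCA were found in 0 of the 9, and in 13.6%, 3.44% and 1.79% of all windows. The E-box CANNTG was in 5 of 9 (72.3% of all windows), the NFAT core GGAAA in 1 of 9 (61.3%) and the RUNX site TGTGGT in 1 of 9 (16.8%); the Cacna1e window held none of these letters. The RefSeq start behind the Cacna1e window lies 159 kb inside the gene's outermost start in GENCODE M21, which uses the same build, whereas the starts of the other 7 genes lie within 746 bases of it.

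The levels of the 10 genes spanned a wide range, and the order was led by the pump of the ER. In the controls Atp2a3, the SERCA3 pump of blood cells, averaged 240 ± 17.7 FPKM (SD, n = 4 here and below) and stood far above the other 9 genes in every sample. Stim1 at 38.8 ± 0.783 FPKM and Atp2a2, the widely expressed SERCA2 pump, at 36.8 ± 3.27 FPKM overlapped, as did Atp2a2 and Itpr2 at 29.5 ± 4.74 FPKM and Itpr2 and Itpr1 at 22.0 ± 3.22 FPKM. Itpr3 followed at 18.2 ± 1.75 FPKM, Stim2 at 13.6 ± 0.363 FPKM and Atp2b1, a plasma membrane pump, at 10.4 ± 1.47 FPKM, each below its upper neighbour in every sample with no overlap. Cacna1e at 7.74 ± 2.74 FPKM overlapped both Atp2b1 and the lowest gene, Orai1, at 5.38 ± 0.840 FPKM. In the Lck-cre samples the order differed in 3 places: Atp2a2 stood above Stim1, Itpr3 above Itpr1 and Orai1 above Cacna1e, the first and the last of these with no overlap between samples.

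**Figure D1:**
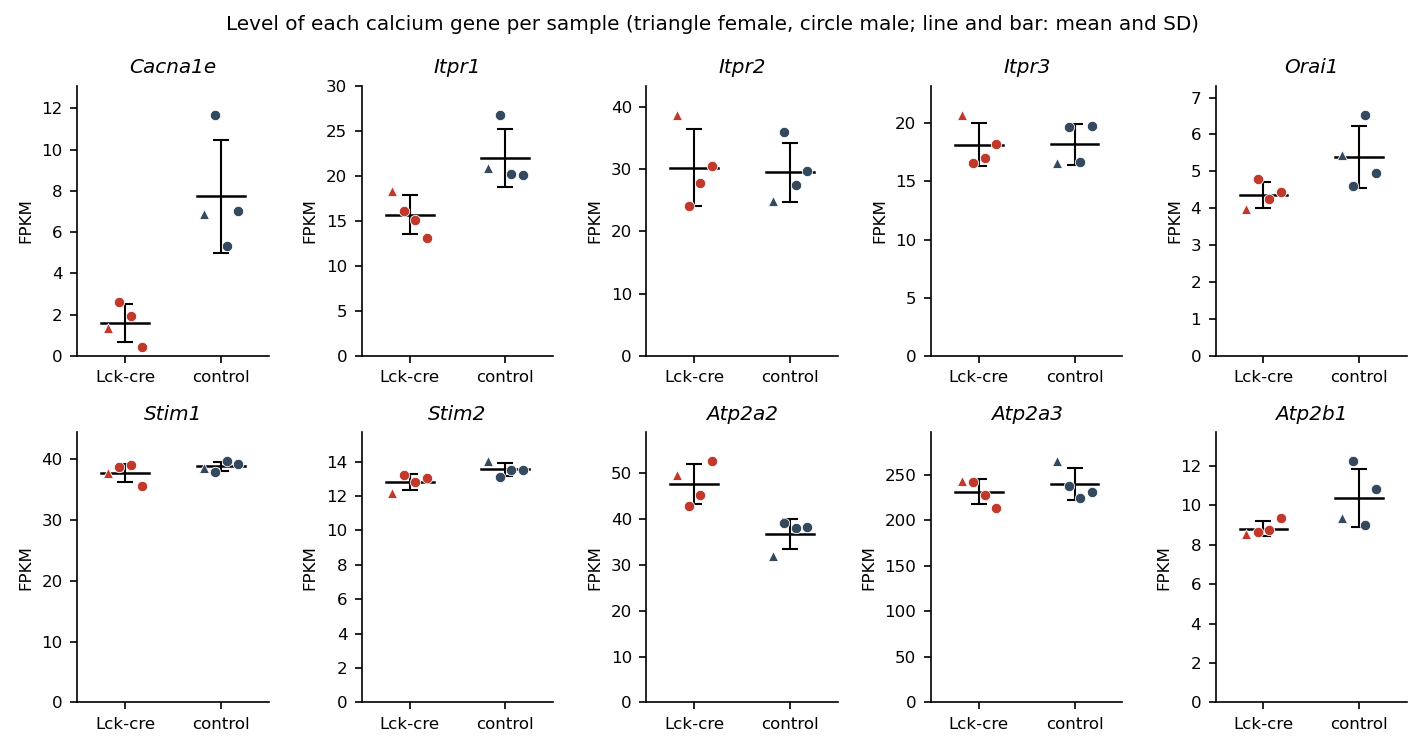
FPKM of each of the 10 genes (vertical axes, from 0, each panel on its own scale) in the 4 Lck-cre samples (red, left) and the 4 controls (dark blue, right), with the mean and SD; triangles are the females. The groups are apart for Cacna1e, Itpr1 and Atp2a2 and overlap for the other 7.

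Between genotypes, 3 of the 10 genes passed limma's test at an adjusted p of 0.05: Cacna1e and Itpr1 were lower and Atp2a2 was higher in Lck-cre samples. Without the filter on low values none of these 3 passed. Over all 12337 genes tested 25.8% passed, 15.4% higher and 10.4% lower, so the members' share is close to that of all genes, and since the members were named with this comparison known, nothing is read from their count. Other scalings called a like share of all genes: 27.3% with TPM (10.5% higher, 16.8% lower), 26.2% with quantile normalization (13.9% and 12.3%), 25.6% with median-of-ratios scaling (13.7% and 11.9%) and 26.4% with the coverage values described below (16.2% and 10.1%). The groups did not overlap in the same 3 genes, 1 higher and 2 lower, against 29.4% of all genes (17.1% higher, 12.3% lower). The median log2 change was -0.06 over the members and 0.01 over all genes tested, and the median size of the change was 0.14 over the members and 0.18 over all genes. The p-values below place a gene among all genes and are not independent evidence for it; none is given for Cacna1e, which was chosen for its difference.

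**Figure D2:**
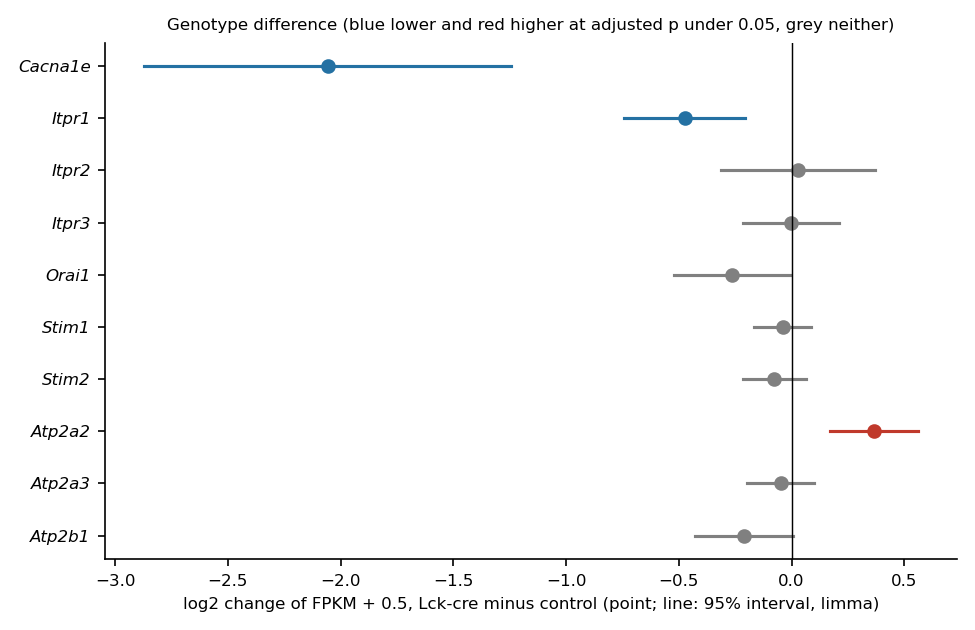
Log2 change of FPKM + 0.5, Lck-cre minus control (points), with 95% confidence intervals from limma (lines), for the 10 genes. Cacna1e at -2.06 and Itpr1 at -0.47 lie left of 0, Atp2a2 at 0.37 lies right of it, and the intervals of Itpr2, Itpr3, Stim1, Stim2, Atp2a3 and Atp2b1 include 0. The interval of Orai1, which was not called, ends just left of 0, at -0.0090.

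Cacna1e encodes the pore subunit of R-type voltage-gated calcium channels, known best from neurons and endocrine cells. It lay at 1.38, 2.60, 1.94 and 0.428 FPKM in Lck-cre replicates 5 to 8, against 6.88, 11.7, 5.35 and 7.03 FPKM in control replicates 1 to 4. The highest Lck-cre sample was below the lowest control, and the ratio of means was 4.88-fold lower in Lck-cre. Its log2 change stood at -2.06 (SE 0.36), and 0.00811% of the genes tested had a lower value. Cacna1e also varied most from sample to sample, with a coefficient of variation of 58.0% in Lck-cre and 35.5% in the controls, where the median over all genes was 9.46% and 9.08%. It was chosen as one of the largest decreases, so these values are a description.

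The files list Cacna1e (ENSMUSG00000004110.18) on chromosome 1 from 154266477 to 154760247, minus strand, in a build they do not name, and no other listed gene overlaps it. Of the 17 other voltage-gated calcium channel subunits listed, 3 were expressed enough to be tested. None passed (0 higher and 0 lower by limma, and 1 lower at an unadjusted p under 0.05). The one with the smallest p, Cacnb1, an auxiliary beta subunit, averaged 10.04 ± 1.33 FPKM in Lck-cre and 12.6 ± 1.44 FPKM in the controls (adjusted p = 0.0689 by limma).

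The deposited tables hold a further measure, the depth of reads over each base averaged along a gene, which for Cacna1e was low for its FPKM. The commonest ratio of this coverage to FPKM, held by more than 21.3% of genes in every sample, was between 7.65 and 7.86 in Lck-cre and between 7.53 and 7.89 in control samples, and dividing coverage by it gives a value on the scale of FPKM. Scaled in this way, Cacna1e lay at 0.115, 0.213, 0.149 and 0.0492 in Lck-cre replicates 5 to 8 and at 0.566, 0.945, 0.447 and 0.555 in control replicates 1 to 4. The groups were again apart, and the ratio of means, 0.209, was close to the 0.205 of FPKM. On the log2(value + 0.5) scale the change in scaled coverage was -0.83, since the added 0.5 weighs more on values this low. The scaled coverage was between 7.66% and 11.5% of the FPKM in Lck-cre samples and between 7.90% and 8.37% of it in control samples. Itpr1 at 7.57% and Atp2b1 at 8.22% on average were as low, Itpr2 at 26.8% and Stim1 at 27.7% were intermediate, and Orai1, Atp2a2, Atp2a3, Stim2 and Itpr3 ranged from 75.5% to 99.7%. Over all genes tested the median was 64.2%, and 3.73% of genes lay under 10%. GENCODE M21 lists 8 transcripts of Cacna1e whose exons merge to 25228 bases, with coding transcripts of 331 to 14921 bases; the sources used here do not say how transcripts were combined into the FPKM of a gene.

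**Figure D3:**
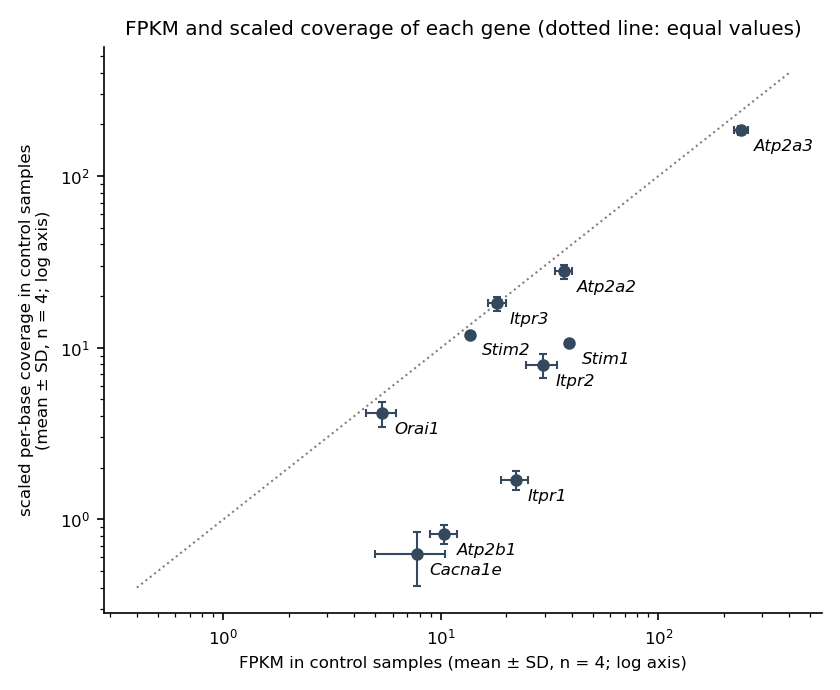
Mean FPKM (horizontal, log axis) against mean scaled coverage per base (vertical, log axis) of the 10 genes in the 4 controls, with SDs; the dotted line marks equal values. Cacna1e, Itpr1 and Atp2b1 lie more than 10-fold below the line, Itpr2 and Stim1 between, and the other 5 near it.

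Levels between genes therefore depended on the measure, while the direction of the called genotype differences did not. By scaled coverage Itpr3 at 18.1 ± 1.75 ranked above Stim1, Stim2 and Itpr2 in the controls and Itpr1 at 1.69 ± 0.210 ranked below Orai1, whereas by FPKM Itpr1 stood above Itpr3. Cacna1e at 0.628 ± 0.218 was the lowest of the 10 by scaled coverage in both groups. The same 3 genes had groups that did not overlap.

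The IP3 receptors, the calcium release channels of the ER, did not move together. Itpr1 (ENSMUSG00000030102.12, listed on chromosome 6 from 108190057 to 108528070, plus strand), best known from cerebellar neurons, lay at 18.4, 16.1, 15.2 and 13.1 FPKM in Lck-cre replicates 5 to 8, against 20.9, 26.8, 20.2 and 20.1 FPKM in control replicates 1 to 4. Every Lck-cre sample was below every control, with control replicate 2 standing above the other controls. On the log2 scale Itpr1 fell by 0.47 (SE 0.12, adjusted p = 0.0222 by limma), with a 95% confidence interval of -0.74 to -0.21 for the change. The call ended without Lck-cre replicate 7 (adjusted p = 0.0538) and without the filter on low values (0.0844), in a range of 0.0179 to 0.0844 over all alternatives.

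Itpr2 lay at 38.7, 24.0, 27.7 and 30.5 FPKM in Lck-cre and at 24.8, 35.9, 27.4 and 29.6 FPKM in the controls. The groups overlapped, with the female the highest of the Lck-cre samples and the lowest of the controls. Itpr3 lay at 20.7, 16.6, 17.1 and 18.2 FPKM in Lck-cre and at 16.6, 19.7, 16.7 and 19.7 FPKM in the controls, again with the female at opposite ends. The log2 change was 0.03 for Itpr2 (adjusted p = 0.907 by limma; 95% confidence interval -0.31 to 0.37) and -0.0025 for Itpr3 (adjusted p = 0.987; -0.21 to 0.21). Both intervals exclude a change as large as that estimated for Itpr1. The sign of both estimates turned when samples were left out, and that of Itpr2 also with TPM or quantile normalization.

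The make-up of the IP3 receptor transcripts, which is free of any scaling between samples, shifted accordingly. Itpr1 gave 23.6%, 28.4%, 25.3% and 21.2% of the summed FPKM of the 3 genes in Lck-cre samples, against 33.5%, 32.5%, 31.4% and 29.0% in the controls. The groups did not overlap, though Lck-cre replicate 6 and control replicate 4 were close. The sum of the 3 receptors was 64.1 ± 9.35 FPKM in Lck-cre and 69.7 ± 9.01 FPKM in the controls, within the spread of either group. By coverage Itpr3 was the largest part of the receptors and Itpr1 the smallest in both groups, between 3.54% and 5.06% in Lck-cre samples and between 5.39% and 6.70% in control samples.

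**Figure D4:**
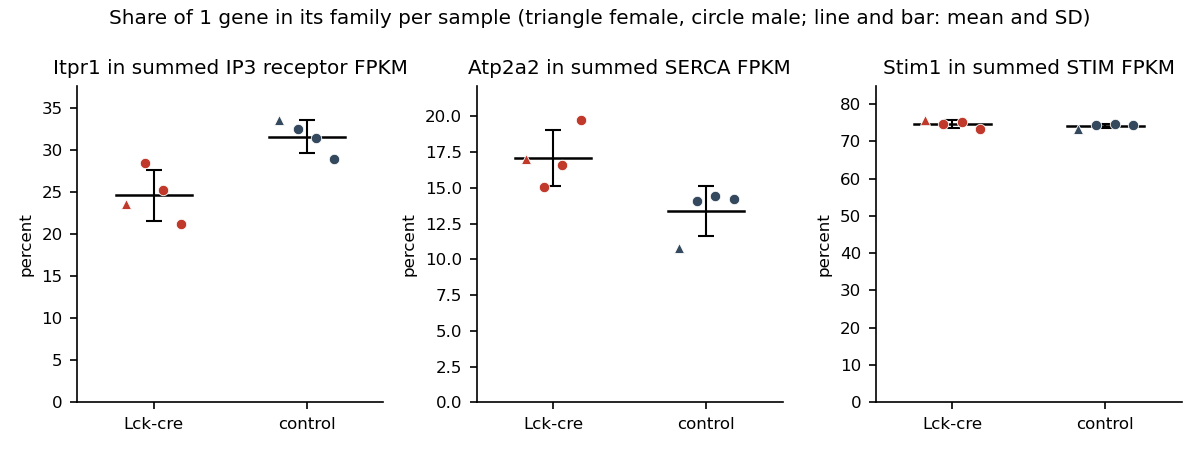
Share of Itpr1 in the summed FPKM of the 3 IP3 receptors, of Atp2a2 in that of the SERCA pumps and of Stim1 in that of the STIM sensors (percent, axes from 0) per sample, Lck-cre left and control right, with mean and SD; triangles are the females. The first share is lower and the second higher in every Lck-cre sample than in any control, and the third lies at 73.2% to 75.6% in all 8 samples.

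The sensors of store-operated entry varied least from sample to sample within a group among the 10 genes. The coefficient of variation was 4.04% for Stim1 and 3.55% for Stim2 in Lck-cre, and 2.02% and 2.68% in the controls. Atp2b1 was close to Stim1 in Lck-cre, at 4.05%, but not in the controls, at 14.2%. Stim1, the main calcium sensor of the ER, lay at 37.7, 38.7, 39.1 and 35.7 FPKM in Lck-cre and at 38.5, 37.9, 39.7 and 39.3 FPKM in the controls. Stim2, a sensor that responds to smaller losses of ER calcium, lay at 12.2, 13.2, 12.8 and 13.04 FPKM in Lck-cre and at 14.0, 13.1, 13.5 and 13.5 FPKM in the controls. Both pairs of groups overlapped. The log2 change of Stim1 was -0.04 (adjusted p = 0.627 by limma; 95% confidence interval -0.17 to 0.09) and that of Stim2 -0.08 (adjusted p = 0.371; -0.22 to 0.06). Stim1 exceeded Stim2 by 2.74- to 3.10-fold in FPKM within each Lck-cre sample and by 2.75- to 2.93-fold within each control, but by coverage the ratio of Stim1 to Stim2 was between 0.861 and 0.987 in Lck-cre samples and between 0.861 and 0.922 in control samples.

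Orai1, the pore of the store-operated channel, lay at 3.97, 4.79, 4.25 and 4.44 FPKM in Lck-cre and at 5.43, 4.61, 6.53 and 4.94 FPKM in the controls. The Lck-cre samples lay in the lower part of the control range or under it. Its log2 change stood at -0.27 (SE 0.11), with a 95% confidence interval of -0.52 to -0.0090, which did not pass over all genes (adjusted p = 0.110 by limma), and passed with TPM values (adjusted p = 0.0444), in a range of 0.0444 to 0.299 over the alternatives. Orai1 was the least abundant of its family but for Orai3: Orai2, which pairs with Orai1 in T cells and tempers its current, averaged 55.0 ± 7.30 FPKM in Lck-cre and 71.3 ± 6.06 FPKM in the controls, and Orai3 3.24 ± 0.239 FPKM in Lck-cre and 1.93 ± 0.279 FPKM in the controls.

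Among the pumps, Atp2a2 (ENSMUSG00000029467.16, listed on chromosome 5 from 122591576 to 122640288, minus strand) was higher in Lck-cre, at 49.7, 42.9, 45.2 and 52.6 FPKM in replicates 5 to 8 against 32.0, 39.1, 38.0 and 38.2 FPKM in control replicates 1 to 4. Every Lck-cre sample was above every control, and the female control was the lowest of all. On the log2 scale Atp2a2 rose by 0.37 (SE 0.09, adjusted p = 0.0181 by limma), with a 95% confidence interval of 0.17 to 0.56, and the ratio of means was 1.29. The call ended in males only (adjusted p = 0.0788 by limma, log2 change 0.28) and without the filter on low values (0.0660). Leaving out control replicate 1 (0.0795) or Lck-cre replicate 5 (0.0792), the females, ended it with the same log2 change of 0.28. With the sex term the female left adds nothing to the genotype estimate, so these fits repeat the males-only check. The range over the alternatives was 0.00732 to 0.0795.

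Atp2a3 lay at 243, 242, 228 and 214 FPKM in Lck-cre and at 265, 238, 225 and 231 FPKM in the controls, with overlapping groups (log2 change -0.05, adjusted p = 0.605 by limma; 95% confidence interval -0.20 to 0.10). Atp2a2 made up 17.0%, 15.1%, 16.6% and 19.7% of the summed FPKM of these SERCA genes in Lck-cre samples and 10.8%, 14.1%, 14.4% and 14.2% in the controls. The shares did not overlap, by a margin between Lck-cre replicate 6 and control replicate 3 that is small beside the SDs of 1.95 percentage points in Lck-cre and 1.75 in the controls. The summed level was 279 ± 11.8 FPKM in Lck-cre and 277 ± 14.8 FPKM in the controls.

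Atp2b1, which expels calcium from the cell, lay at 8.53, 8.67, 8.76 and 9.34 FPKM in Lck-cre and at 9.36, 12.2, 9.01 and 10.8 FPKM in the controls. The groups overlapped, with 3 of the 4 Lck-cre samples under every control (log2 change -0.21, adjusted p = 0.129 by limma; 95% confidence interval -0.43 to 0.0058). It passed without control replicate 3 (adjusted p = 0.0480), in a range of 0.0480 to 0.356 over the alternatives. By scaled coverage its difference was smaller, at 0.746 ± 0.0450 in Lck-cre and 0.825 ± 0.103 in the controls.

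Sex was not used to choose the members, so it gives a test that is independent of the choice. None of the 10 genes differed between the 2 females and the 6 males by limma with genotype in the model (0 called, 0 at an unadjusted p under 0.05, adjusted p = 0.999 for each). Over all genes 0.0811% were called, and 4.51% had an unadjusted p under 0.05. The smallest unadjusted p was that of Atp2a3 (0.0875 by limma), at 254 FPKM on average in females and 230 ± 10.1 FPKM in males (log2 difference 0.15, 95% confidence interval -0.03 to 0.32). Whether the genotype difference itself varied with sex was tested as an interaction, with 1 female per genotype and 4 residual degrees of freedom. It called 0 of the 10 genes and 0 of 12337 by limma, and 2 of the 10 had an unadjusted p under 0.05 (2.72% over all genes). With no gene called at 1 female per genotype, these 0 calls do not show that the difference is the same in both sexes. These were Itpr2, at 38.7 FPKM in the Lck-cre female and 24.8 FPKM in the control female and at 27.4 ± 3.24 FPKM in Lck-cre males and 31.0 ± 4.41 FPKM in control males (n = 3 each; log2 interaction 0.80, SE 0.25, adjusted p = 0.9999), and Itpr3 (0.42, SE 0.18, adjusted p = 0.9999).

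Within the Lck-cre group the Sting1 level differed, at 221, 85.4, 130 and 232 FPKM in replicates 5 to 8. Cacna1e ran in the reverse order, from 0.428 FPKM in replicate 8, the highest in Sting1, to 2.60 FPKM in replicate 6, the lowest. Atp2a2 ran in the same order, from 52.6 FPKM in replicate 8 to 42.9 FPKM in replicate 6, and the other 8 genes followed neither order. Of the genes tested other than Sting1, 8.4% were ordered like Sting1 and 9.33% in reverse, 17.7% in all, so 2 of 10 is near that share. The summed DP markers, at 4969, 5911, 5374 and 4607 FPKM in replicates 5 to 8, ran in reverse as well, and their part in these orders was not tested.

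Over the 8 samples, the 5 genes whose log2 FPKM followed Cacna1e most closely, among 10367 with an established symbol, were Myo10, Nav2, Rag1, Ankrd50 and Rai1 (Pearson r of 0.996 for the first and 0.986 for the fifth). All 8 values share the difference between genotypes, and 489 other genes reached an r of 0.9, so this describes a rank only. Rag1, which cuts DNA in receptor gene rearrangement, averaged 538 ± 86.2 FPKM in Lck-cre and 802 ± 71.4 FPKM in the controls. Nav2, a cytoskeletal regulator known from neurons, averaged 3.38 ± 0.795 FPKM in Lck-cre and 7.43 ± 0.848 FPKM in the controls. Myo10, an unconventional myosin of filopodia, averaged 3.01 ± 0.511 FPKM in Lck-cre and 4.82 ± 0.663 FPKM in the controls. Ankrd50, an endosomal ankyrin repeat protein, averaged 29.0 ± 3.66 FPKM in Lck-cre and 39.9 ± 2.55 FPKM in the controls, and Rai1, a chromatin-associated factor, 50.5 ± 5.75 FPKM in Lck-cre and 67.7 ± 4.65 FPKM in the controls. Among the members, Itpr1 had an r of 0.91 with Cacna1e and Atp2a2 an r of -0.87.

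The rest of the calcium pathway was read from 13 lists of 182 genes, of which 125 were tested, 17 were higher and 18 lower in Lck-cre by limma. That is 28.0% called, close to the 25.8% of all genes. With TPM in place of FPKM 14 were higher and 30 lower, and over all genes 1300 and 2067 in place of 1901 and 1279. Quantile normalization gave 15 and 24, median-of-ratios scaling 15 and 21 and scaled coverage 17 and 18.

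**Figure D5:**
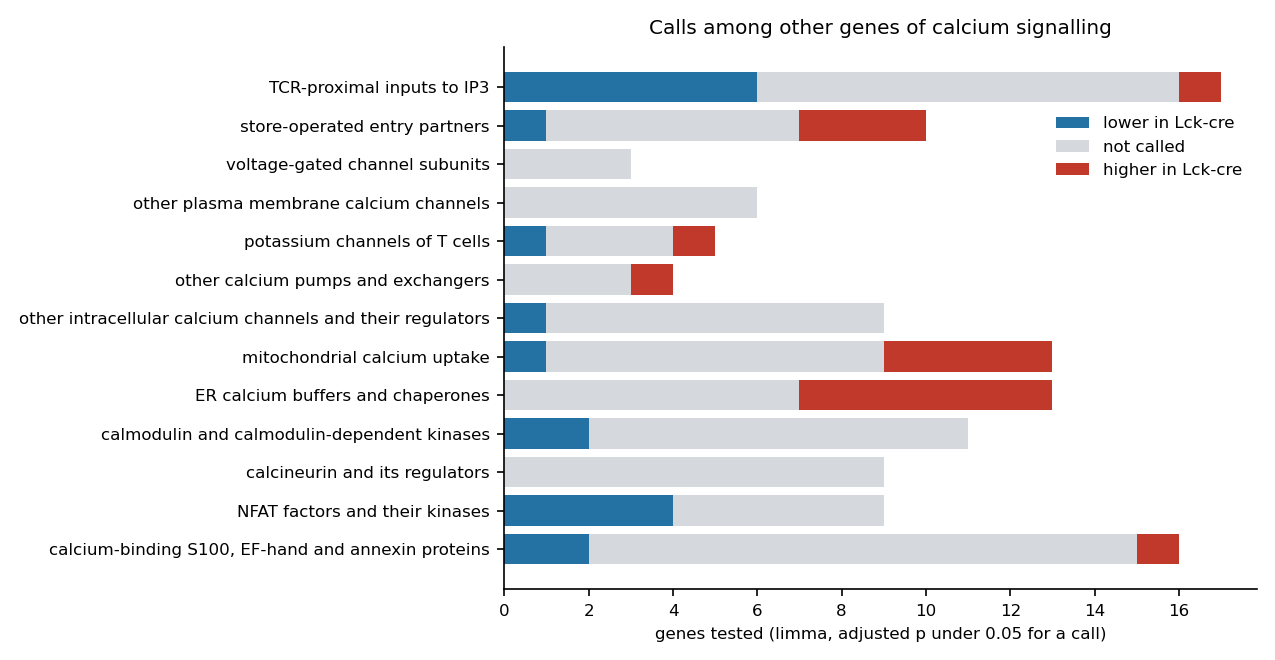
Number of tested genes (horizontal axis) in each of 13 lists of other calcium genes, split into those lower in Lck-cre (blue), not called (grey) and higher in Lck-cre (red) by limma at an adjusted p under 0.05. ER calcium buffers hold calls in the upward direction alone (6 of 13), NFAT factors and their kinases in the downward direction alone (4 of 9).

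Of 17 genes that lead to IP3 or use it up, 6 were lower and 1 higher by limma. Over all genes 10.4% were lower and 15.4% higher. Among the enzymes that use up IP3, Itpkb and Inpp5a fell, Itpkc was not called and Itpka rose. The call of Inpp5a ended with scaled coverage (adjusted p = 0.0907 by limma). It also ended without any sample but Lck-cre replicate 6 (up to 0.0873). Tespa1, an adaptor that binds IP3 receptors in thymocytes, averaged 47.4 ± 1.48 FPKM in Lck-cre and 63.5 ± 6.34 FPKM in the controls (log2 change -0.41, SE 0.07). Plcg1, the phospholipase that makes IP3, averaged 90.0 ± 5.31 FPKM in Lck-cre and 112 ± 10.9 FPKM in controls (-0.31, SE 0.08), and Itpkb, the IP3 kinase that thymocytes need for selection, 52.7 ± 3.04 FPKM in Lck-cre and 64.4 ± 4.91 FPKM in controls (-0.28, SE 0.07). The related kinase Itpka was the one that rose, at 1.92 ± 0.389 FPKM in Lck-cre and 1.18 ± 0.143 FPKM in the controls.

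Of 10 partners of store-operated entry, 3 were higher and 1 lower by limma, against 15.4% and 10.4% of all genes, and 2 were higher with TPM, quantile or median-of-ratios scaling. Orai2 fell, at 56.1, 62.3, 56.8 and 44.9 FPKM in Lck-cre replicates 5 to 8 against 79.9, 68.9, 70.6 and 65.9 FPKM in control replicates 1 to 4 (log2 change -0.38, SE 0.10, adjusted p = 0.0246 by limma). Orai3 rose, at 3.48, 2.92, 3.22 and 3.35 FPKM in Lck-cre against 1.93, 1.53, 2.12 and 2.13 FPKM in the controls (0.63, SE 0.11, adjusted p = 0.00978). In neither did the groups overlap. Esyt1, a tether between ER and plasma membrane, rose to 82.0 ± 12.5 FPKM in Lck-cre, against 59.4 ± 2.91 FPKM in the controls, and the phospholipid-binding Anxa6 to 45.8 ± 2.99 FPKM, against 40.0 ± 2.35 FPKM in controls, with overlapping groups. The call of Orai2 ended without control replicates 1 or 2 or Lck-cre replicate 5 (adjusted p of up to 0.101), and that of Anxa6 with TPM (0.147), with quantile normalization (0.0713) and without any sample but Lck-cre replicate 6 (up to 0.102).

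At the plasma membrane, other channels linked to calcium had 0 calls among 6 tested (limma, with 1 higher and 3 lower at an unadjusted p under 0.05). Trpm4, a channel opened by calcium, had the smallest p, at 1.35 ± 0.161 FPKM in Lck-cre and 1.85 ± 0.172 FPKM in the controls (adjusted p = 0.0522 by limma; 0.0308 with TPM and 0.0344 with scaled coverage). With TPM 3 of the 6 were lower, and with quantile normalization, median-of-ratios scaling or scaled coverage 1. Of 5 potassium channels, which hold the membrane potential that drives calcium entry, Kcnk5 rose to 4.86 ± 0.741 FPKM in Lck-cre, against 3.24 ± 0.560 FPKM in controls, and Kcna2 fell to 2.01 ± 0.58 FPKM, against 2.85 ± 0.267 FPKM in controls, both with overlapping groups. The call of Kcna2 ended with quantile normalization (adjusted p = 0.0534 by limma). Of 4 other pumps and exchangers tested, Tmco1, an ER channel that releases excess calcium, rose to 34.2 ± 2.07 FPKM in Lck-cre, against 27.7 ± 2.37 FPKM in controls. Of 9 other intracellular channels and regulators, Tpcn1, an endolysosomal channel, fell to 39.8 ± 3.26 FPKM in Lck-cre, against 53.4 ± 1.97 FPKM in the controls (log2 change -0.42, SE 0.07).

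In the mitochondrial uniporter the pore and its paralog moved in opposite directions. Mcu, the pore, fell to 11.6, 13.7, 12.6 and 10.6 FPKM in Lck-cre, against 17.2, 17.8, 16.0 and 17.5 FPKM in the controls (log2 change -0.49, SE 0.09, adjusted p = 0.00937 by limma). Mcub, a paralog that lowers the current, rose to 5.17, 2.995, 4.63 and 5.24 FPKM in Lck-cre, against 2.24, 2.21, 2.38 and 2.26 FPKM in the controls (0.82, SE 0.15, adjusted p = 0.0100). Lck-cre replicate 6 was nearest to the controls in both. Of the 13 mitochondrial genes 4 rose and 1 fell, against 15.4% and 10.4% of all genes, with Ghitm, an inner membrane protein, at 55.0 ± 3.46 FPKM in Lck-cre and 43.0 ± 3.97 FPKM in the controls, and the outer membrane channel Vdac3 at 43.9 ± 3.20 FPKM in Lck-cre and 35.7 ± 1.39 FPKM in controls.

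Calcium-binding chaperones of the ER gave 6 calls among 13 genes, all of them higher in Lck-cre (limma, 0 lower), against 15.4% higher and 10.4% lower over all genes, while 8 higher and 0 lower had an unadjusted p under 0.05. Calr, or calreticulin, the main calcium store protein of the ER lumen, averaged 180 ± 14.7 FPKM in Lck-cre and 133 ± 8.72 FPKM in the controls (log2 change 0.43, SE 0.07). The disulphide isomerase Pdia3 averaged 104 ± 4.75 FPKM in Lck-cre and 83.7 ± 3.72 FPKM in controls (0.31, SE 0.06), and the EF-hand protein Rcn1 3.76 ± 0.838 FPKM in Lck-cre and 2.26 ± 0.111 FPKM in controls (0.60, SE 0.14).

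Downstream of calcium, the calls among calmodulin-dependent kinases and among NFAT genes were all lower in Lck-cre. Over all genes 10.4% were lower and 15.4% higher. These lists differed as a whole. The median log2 change was 0.09 for calmodulin and its kinases and -0.23 for NFAT factors and their kinases. Camk4, a kinase of thymocyte selection, averaged 43.4 ± 4.54 FPKM in Lck-cre and 60.2 ± 3.996 FPKM in the controls (log2 change -0.47, SE 0.08), and Camk1d 15.6 ± 1.07 FPKM in Lck-cre and 19.3 ± 0.727 FPKM in controls, the 2 calls among 11 genes. Of 9 NFAT factors and their kinases, 4 fell, among them Nfatc2, at 3.70 ± 0.518 FPKM in Lck-cre and 4.97 ± 0.623 FPKM in controls with overlapping groups, and the kinases Gsk3b, at 22.3 ± 1.03 FPKM in Lck-cre and 27.9 ± 2.47 FPKM in controls, and Dyrk2, at 10.96 ± 2.001 FPKM in Lck-cre and 16.4 ± 0.784 FPKM in controls, which phosphorylate NFAT. Calcineurin and its regulators had 0 calls among 9 (limma; 1 higher and 0 lower at an unadjusted p under 0.05), and Rcan1, a calcineurin inhibitor induced by NFAT, averaged 5.55 ± 0.460 FPKM in Lck-cre and 4.66 ± 0.264 FPKM in the controls (adjusted p = 0.0687). Of 16 other calcium-binding proteins 1 rose, the EF-hand protein Tesc, at 8.66 ± 3.79 FPKM in Lck-cre and 1.07 ± 0.187 FPKM in controls, and 2 fell, S100a11, at 19.6 ± 2.61 FPKM in Lck-cre and 29.7 ± 7.64 FPKM in controls with overlapping groups, and Anxa5, at 50.7 ± 4.91 FPKM in Lck-cre and 61.7 ± 3.76 FPKM in controls.

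Levels are given above for 27 genes of these lists that passed, which leaves out Inpp5a. Of these 27, Tespa1, Orai3, Tpcn1, Mcu, Calr, Camk1d, Camk4 and Tesc passed whichever sample was left out. The other 19 lost their call without at least 1 sample, with adjusted p of up to 0.121 by limma. Without the filter on low values 17 of the 27 lost their call, with adjusted p of up to 0.114 (Orai2 at 0.0870 and Mcub at 0.0505 among them). Leaving out control replicate 2 ended 16 calls, Lck-cre replicate 7 ended 11 and control replicate 4 ended 9. Lck-cre replicate 8 ended 8, control replicate 3 ended 3 and Lck-cre replicate 6 ended 1. Leaving out control replicate 1 or Lck-cre replicate 5 ended 17 each. Each is the female of its group, and with the sex term the female left adds nothing to the genotype estimate. Both fits therefore rest on the males alone and are the same check.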

How the data were processed

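Total RNA of sorted thymocytes was sequenced in 8 samples, 4 Lck-cre and 4 control. Per the submitters' processing notes HISAT and Bowtie2 were used; the sources used here give no version, quantifier or genome build. The deposited tables, per the file headers, give FPKM, TPM and a coverage signal per base for each gene, made by the authors. These values were used as they are, with entries that share a gene ID summed, and no counts or depths are among them. Positions are those of the files: all 10 members have the span length of GENCODE M21 (GRCm38) and 0 the same start.

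A gene entered the tests when 4 or more samples reached an FPKM of 1. Values of log2(FPKM + 0.5) went into limma 3.58.1 (R 4.3.3), with genotype and sex as terms, empirical Bayes with a trend (prior degrees of freedom 4.17), and Benjamini-Hochberg adjustment over all genes; fold changes on this scale understate those of low genes. An adjusted p under 0.05 was a call. With fewer than 8 samples left the FPKM minimum had to be met in at least 4 of 7, or 3 of 6. Alternatives were TPM, quantile or median-of-ratios scaling, pseudocounts of 0.1 and 1, no filter or a mean FPKM of 1, no sex term, males only and leaving out each sample. With the sex term, leaving out 1 female gives the genotype estimate of males only. The limma fit was tested on simulated data. Summaries used Python 3.11.15 and pandas 2.3.3. Members, lists and the rule for named genes (per list up to 3 calls in each direction with the smallest adjusted p, else the smallest p; for Cacna1e the 5 genes with the highest Pearson r, without antigen receptor segments and provisional symbols) were chosen with earlier results of these data known. Of the listed genes Gramd2a and Irag2 were not matched. Scaled coverage and the order against Sting1 were added after the data were seen. Motifs were searched on both strands of RefSeq promoter windows.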

Additional observations from a re-analysis of the deposited data

Results flagged for a closer look

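In 52 groups of 4 values (levels, log2 ratios and coverage shares of the members), 4 had 1 sample far from the other 3 by Dixon's criterion, where chance flags about 1 in 20. Itpr1 was at 26.8 FPKM in control replicate 2, against 20.9 FPKM in the next control. Atp2a2 was at 32.0 FPKM in control replicate 1, against 38.0 FPKM in the next, and the log2 ratio of Atp2a2 to Atp2a3 in the same sample was -3.03, against -2.59. The scaled coverage of Atp2a2 was 77.6% of its FPKM in control replicate 4, against 75.2% in the next control.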

How the results depend on the processing

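Among the 10 members, 1 was higher and 2 lower in Lck-cre; without the filter on low values 0 and 0 passed by limma (1 and 2 at an unadjusted p under 0.05), and in males only 0 were higher. Leaving out 1 sample gave 0 to 1 higher and 1 to 3 lower. Among the listed calcium genes, 17 were higher and 18 lower; these counts became 5 and 5 without the filter, 3 and 7 in males only, and 30 lower with TPM, and ran from 3 to 18 and from 7 to 27 with 1 sample left out. The log2 change of Itpr2 turned to -0.045 with TPM, -0.0054 with quantile normalization and -0.17 in males only. Leaving out control replicate 1 or Lck-cre replicate 5, the females, repeats the males-only check and gave the same -0.17. With 1 sample left out the range for Itpr2 was -0.17 to 0.14. That of Itpr3 turned to 0.042, 0.044 and 0.035 without control replicate 2, control replicate 4 and Lck-cre replicate 6 and to 0.02 without Lck-cre replicate 7, in a range of -0.11 to 0.044. The change of Cacna1e kept its sign in all alternatives run (-2.38 to -0.83) and missed the threshold without the filter. The cause was not tested, beyond fewer samples. No member was called between sexes in any alternative run. Each genotype difference in a within-family log2 ratio stayed within 1 SD, the spread between samples, of its value. That SD exceeded the size of the difference for Itpr2/Itpr3, Stim1/Stim2 and Atp2b1/Atp2a3, so the check was weak there. In males only Itpr2/Itpr3 turned from 0.031 to -0.066 and Stim1/Stim2 from 0.038 to -0.0044. Itpr2/Itpr3 also turned without control replicate 1, control replicate 4 or Lck-cre replicate 5. No paired analysis was possible because the groups share no replicate numbers. The interaction could not be fitted without either female. Depth is unknown, so the precision of low genes such as Cacna1e cannot be given.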
